A study of Rattus norvegicus with 8 samples.

Results

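Leukocyte lineage miRNAs are small RNAs made mainly in blood cells. The 7 followed here are rno-miR-142-3p and rno-miR-142-5p, rno-miR-223-3p and rno-miR-223-5p, rno-miR-342-3p and rno-miR-342-5p, and rno-miR-150-5p, out of 758 rat miRNAs on the array, written below without the species prefix. They were picked by name for the lineage each is known to mark: miR-142 for all leukocytes, miR-223 for myeloid cells, and miR-150 and miR-342 for lymphoid cells. The tissue was synovium, which lines the joint, from the left knee of Sprague-Dawley rats on 8 single-colour arrays. In 4 samples the anterior cruciate ligament was transected (ACLT), which is used to model osteoarthritis. In 4 sham samples the ligament was exposed and left whole, so the controls had also had the joint opened, and the tissue came from the side of the knee away from the incision. The protocol places sampling 2 weeks after surgery and the series title 14 days, while 7 days stands in the design text. Nothing in the labels says that replicates were separate animals, so every p-value below measures the spread between these samples only, which may be technical.

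A miRNA guides silencing proteins to messages that pair with its seed, bases 2 to 8 of its mature strand. Each precursor hairpin can release a 5p and a 3p strand, and usually 1 of them is kept. miR-142 is found across blood cell types and is commonly read as a sign of leukocytes in a tissue. miR-223 is high in neutrophils and monocytes, where it restrains granulocyte production and inflammatory signalling. miR-150 rises as B and T cells mature and represses the transcription factor Myb, and miR-342 lies within the gene Evl and is expressed in lymphoid and some myeloid cells. Synovium holds resident macrophages, and inflamed synovium takes up further leukocytes from the blood.

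The mature strands of 6 members are shown, with the seed in capitals, because strands of 1 hairpin were measured very unequally. They are from RefSeq (build GRCr8); miR-150-5p was not matched.
miR-142-3p: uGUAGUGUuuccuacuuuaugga
miR-142-5p: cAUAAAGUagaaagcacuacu
miR-223-3p: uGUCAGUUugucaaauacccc
miR-223-5p: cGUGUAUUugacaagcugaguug
miR-342-3p: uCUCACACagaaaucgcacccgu
miR-342-5p: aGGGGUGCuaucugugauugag
The 6 seeds differ from each other, and 0 other rat miRNAs in that table share any of them.

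The precursors of miR-142 and miR-223 show both strands in place, in capitals, with the 5p strand first.
Mir142: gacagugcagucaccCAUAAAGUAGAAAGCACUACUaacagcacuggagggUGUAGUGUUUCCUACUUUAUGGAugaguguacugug
Mir223: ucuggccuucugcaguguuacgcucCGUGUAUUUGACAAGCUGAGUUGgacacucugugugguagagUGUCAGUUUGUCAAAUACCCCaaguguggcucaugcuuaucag
The Mir142 hairpin is at chr10:73055104-73055190 on the plus strand of GRCr8 and overlaps the protein-coding gene Tspoap1. The Mir223 hairpin is at chrX:65151383-65151492 on the plus strand and overlaps a long noncoding RNA. The hairpin of miR-342 overlaps Evl on chromosome 6, and that of miR-150 overlaps no other annotated gene. None of the 4 precursors has another miRNA gene within 10 kb.

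Of the 7 members, 5 were called detected by the scanner software on at least 1 array and 3 on all 8, against 199 and 103 of all 758 miRNAs. miR-142-3p, miR-223-3p and miR-150-5p were detected on every array. miR-142-5p and miR-342-3p were detected on ACLT replicates 1 and 2 and on sham replicate 4, and on no other array. miR-223-5p and miR-342-5p were detected on 0 of 8. So each of the 3 hairpins with both strands on the array gave more detections from its 3p strand. Each strand has its own probes, so this counts detection calls and does not compare the amounts of the strands. Among the 96 miRNAs detected on some arrays only, 20 had exactly the arrays of miR-142-5p and miR-342-3p.

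Those 3 arrays were also the brightest. The array's brightness is given here as the 75th percentile of the signal across 136 probes that exceeded background on every array. It was 797 to 1185 on these 3 and 289 to 353 on the other 5, a range of 4.10-fold over all 8. For the members, a signal is the background-subtracted processed signal, in linear units, averaged over the spots of the miRNA's brightest probe. The lowest signal that counted as well above background was between 13.1 and 17.3 on each array. On the 5 dimmer arrays miR-142-3p was at 17.8 to 27.0, miR-223-3p at 19.9 to 30.5 and miR-150-5p at 19.4 to 40.1. There miR-142-5p, miR-342-3p, miR-223-5p and miR-342-5p reached at most 8.79, below that limit. The number of arrays limits the precision. On all arrays 0 spots were saturated.

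**Figure D1:**
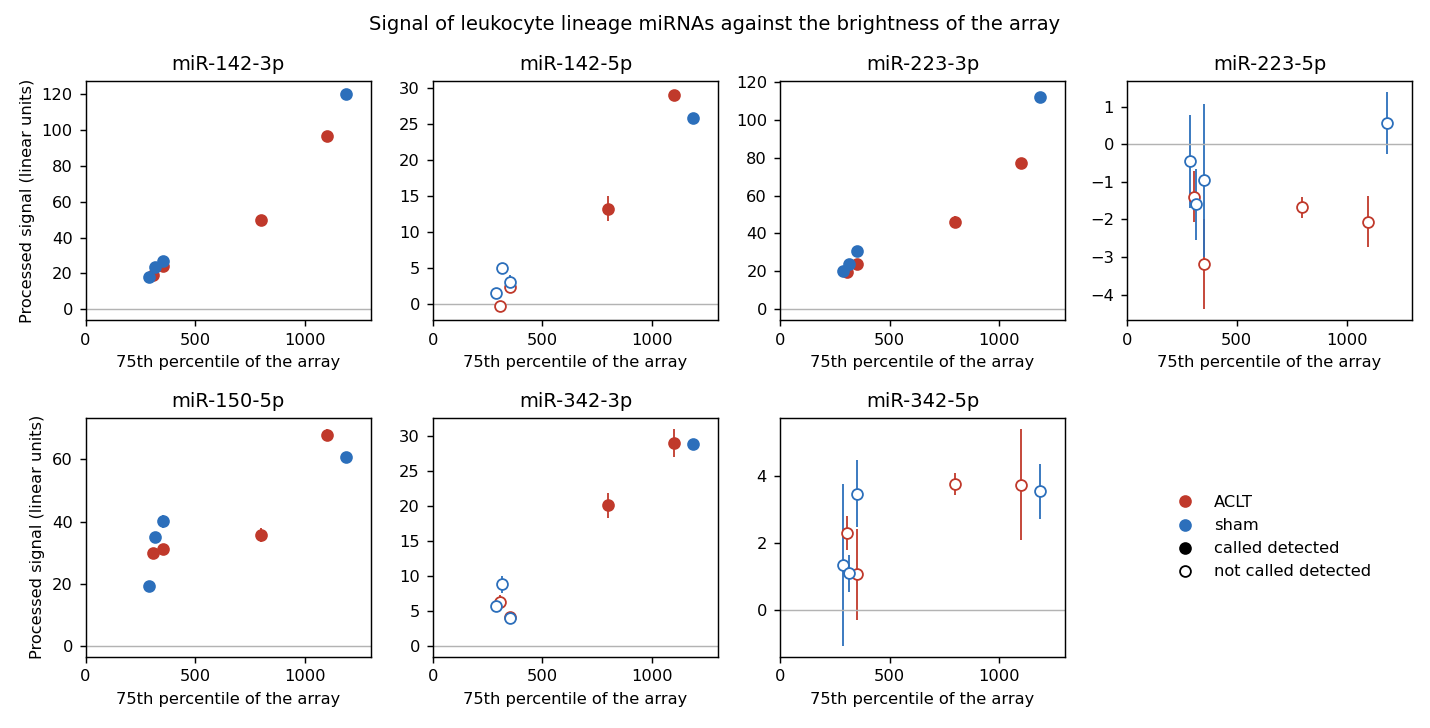
Processed signal of each member (vertical axis, linear units, brightest probe, bars are the standard error over spots) against the 75th percentile of the array (horizontal axis, linear units) for 4 ACLT and 4 sham arrays. Filled points were called detected, and for miR-142-5p and miR-342-3p the filled points are the 3 arrays at 797 and above.

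miR-142-3p, the strand read for all leukocytes, had signals of 49.8, 96.6, 24.0 and 19.1 with the ligament cut, in the order of the replicate numbers. With the ligament whole it had 17.8, 23.6, 27.0 and 120.1. Sham replicate 4 and ACLT replicate 2 were high and the groups overlapped over nearly their whole range. Sham replicate 1, at 17.8, was the only array on which its brightest probe was not well above background.

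miR-142-5p, the other strand of that hairpin, had 13.2, 29.0, 2.33 and -0.33 after ACLT and 1.52, 4.98, 3.07 and 25.8 after sham surgery. ACLT replicate 2 and sham replicate 4, which were highest for miR-142-3p, were highest here too, and these were the only arrays on which its brightest probe was well above background. On the 5 arrays of lower brightness it reached at most 4.98.

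miR-223-3p, the myeloid strand, had 46.2, 77.4, 23.8 and 19.9 on the ACLT arrays and 20.3, 23.8, 30.5 and 112 on the sham arrays. Its brightest probe was well above background on all 8. On no array was miR-223-5p well above background, and its 3 probes reached at most 0.57.

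miR-150-5p, of mature lymphocytes, had 35.8, 68.0, 31.2 and 29.8 after ACLT and 19.4, 34.9, 40.1 and 60.7 after sham surgery, well above background on all 8. Its other probe was well above background on 0 arrays, with 2.66 to 12.7. Its signal spanned 3.51-fold over the arrays, less than their brightness, whereas miR-142-3p spanned 6.74-fold and miR-223-3p 5.64-fold. miR-342-3p, the other lymphoid strand with signal, had 20.1, 29.0, 4.14 and 6.29 after ACLT and 5.70, 8.79, 4.02 and 28.8 after sham surgery. It was well above background on ACLT replicate 2 and sham replicate 4. miR-342-5p stayed at or below 4.30 on each of its 4 probes on every array.

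To compare the groups, each signal was divided by the array's 75th percentile and taken to log2. Values under 4.49% of that percentile, a log2 of -4.48, were set to this floor. In signal units it equals 35.8 to 53.2 on the 3 brightest arrays and 13.0 to 15.9 on the other 5. On the bright arrays a signal well above background can therefore lie at the floor. miR-142-5p, miR-342-3p, miR-223-5p and miR-342-5p lay at the floor on all 8 arrays, and none was detected on all arrays of a group, so these 4 were not tested. Unfloored, miR-342-3p was 1.17% to 2.65% of the percentile after ACLT and 1.14% to 2.77% after sham surgery. miR-142-5p was -0.11% to 2.64% and 0.52% to 2.18%. The groups overlapped for both. The members tested were miR-142-3p, miR-223-3p and miR-150-5p, among 113 miRNAs in all.

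None of the 3 tested members passed the test between ACLT and sham synovium. By limma with Benjamini-Hochberg adjustment 0 of 3 passed an adjusted p of 0.05, as did 0 of 113 tested miRNAs (0%). At an unadjusted p under 0.05 there were 8 of 113 (7.08%), all 8 lower after ACLT and 1 of them a member. The means of all 3 members were lower after ACLT, with a median log2 difference of -0.21. Over all tested miRNAs 64.6% had a lower mean after ACLT and the median was -0.07. In these bulk samples fewer leukocytes and less of a miRNA per leukocyte cannot be told apart. For 0 of the 3 members, and for 0% of all tested miRNAs, were the groups free of overlap.

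miR-223-3p came closest. Its scaled log2 levels were -4.11, -3.82, -3.89 and -3.94 with the ligament cut, in replicate order, against -3.83, -3.73, -3.53 and -3.40 with it whole. ACLT replicate 2 lay just above sham replicate 1, and every other ACLT array lay below every sham array. The means were -3.94 ± 0.12 (SD, n = 4) and -3.63 ± 0.19 (SD, n = 4), which is 1.25-fold lower after ACLT. The log2 difference was -0.32 (SE 0.11, 95% interval -0.58 to -0.049), with a limma adjusted p of 0.645 and an unadjusted p of 0.0265. With a lower floor the difference stayed at -0.32, but its 95% interval was -0.66 to 0.027 (limma unadjusted p = 0.0666). Under the main floor the difference was -0.18 within slide row 1, which held replicates 1 and 2, and -0.45 within row 2. Its second probe, well above background on 4 arrays and at the floor on 3, differed by -0.36. All 3 arrays at the floor were ACLT. On ACLT replicates 1 and 2 that probe was well above background at 25.0 and 37.3, under floors equal to 35.8 and 49.3. Without sham replicate 3, whose spots had a coefficient of variation of 57.1%, the difference of the second probe was -0.14.

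Of the erythroid list, miR-144-3p and miR-451-5p were among the 3 miRNAs outside the members most correlated with miR-223-3p, behind miR-10a-5p. The other lists were not ranked in this way as whole lists. In the erythroid list, 4 of 4 miRNAs were detected and 3 tested, with a median difference of -0.53 and 0 passing. The mean was lower after ACLT for miR-451-5p and miR-144-3p and higher for miR-486 (0.14). miR-486 lay at the floor on 4 arrays, among them sham replicate 4, where miR-223-3p was highest. Their summed signal was 0.525 to 0.959 times the array's 75th percentile after ACLT and 0.494 to 1.49 times after sham surgery. Its defining marker miR-451-5p, made in red cell precursors, averaged -0.87 ± 0.48 with the ligament cut and -0.35 ± 0.80 with it whole (SD, n = 4 each). It was highest on sham replicates 3 and 4, as miR-223-3p was. The part of these miRNAs in the result was not tested.

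For miR-142-3p the scaled log2 levels were -4.00, -3.50, -3.88 and -4.00 after ACLT and -4.02, -3.75, -3.71 and -3.30 after sham surgery. The lowest and the highest array of the 8 were both sham. The means were -3.84 ± 0.23 and -3.69 ± 0.30 (SD, n = 4 each), a difference of -0.15 (SE 0.18, 95% interval -0.57 to 0.27, limma adjusted p = 0.852). Without sham replicate 4 the difference was -0.019, and without ACLT replicate 2 or sham replicate 1 it was -0.26. It was 0.13 within slide row 1 and -0.43 within row 2. Its second probe was at the floor throughout.

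For miR-150-5p the scaled log2 levels were -4.48, -4.01, -3.50 and -3.35 after ACLT, the first at the floor, and -3.90, -3.18, -3.14 and -4.29 after sham surgery. Each group held both high and low arrays. The means were -3.84 ± 0.51 and -3.63 ± 0.56 (SD, n = 4 each), a difference of -0.21 (SE 0.35, 95% interval -1.05 to 0.63, limma adjusted p = 0.886). It was -0.70 within slide row 1 and 0.29 within row 2. Without ACLT replicate 1 it was 0.0050, without sham replicate 3 it was -0.046, without sham replicate 2 -0.060 and without sham replicate 4 -0.43. Its level differed with the brightness of the array: 4.49% to 6.20% of the percentile on the 3 brightest arrays and 6.70% to 11.4% on the other 5, with no overlap. The same ranges overlapped for miR-142-3p (6.24% to 10.1% against 6.16% to 7.64%) and for miR-223-3p (5.79% to 9.45% against 6.51% to 8.64%). The percentile that ranks the arrays is also the divisor, so a signal that spans less than the brightness tends to be lower on bright arrays. The split was not particular to miR-150-5p. miR-181b-5p was at -4.48 to -4.44 (log2) on the 3 brightest arrays and -3.79 to -3.33 on the other 5. How many of all tested miRNAs split in this way was not counted. Brightness was not a variable of the study, and the 3 brightest arrays came from both groups.

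**Figure D2:**
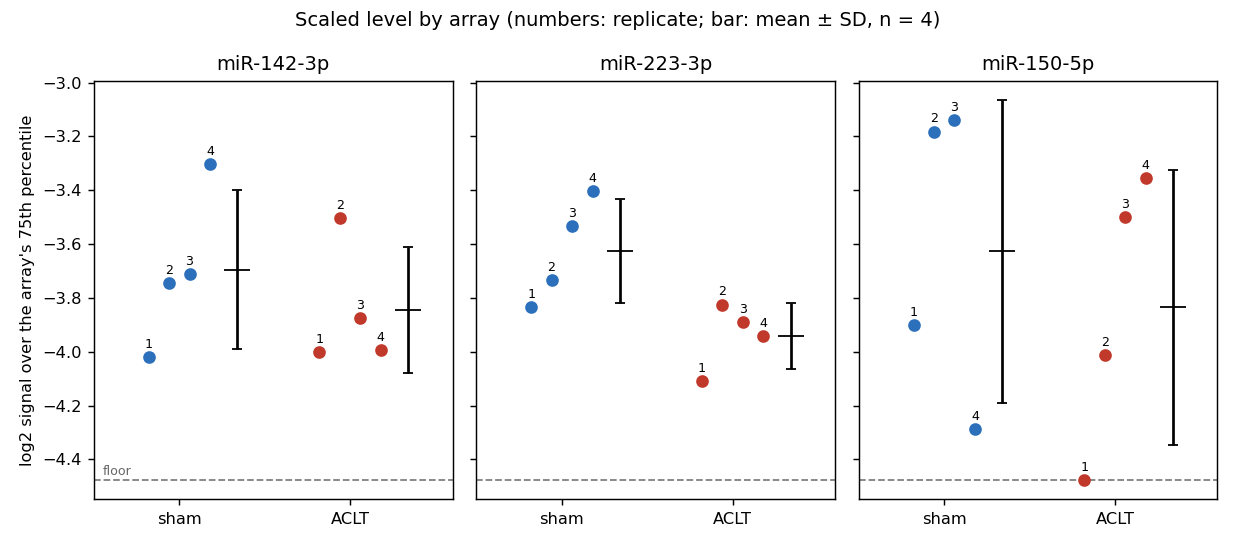
Scaled log2 level (vertical axis, log2 of the signal over the array's 75th percentile) of the 3 tested members on each sham and ACLT array, numbered by replicate, with mean ± SD (n = 4). Only miR-223-3p comes near to a separation of the groups, and miR-150-5p on ACLT replicate 1 sits on the dashed floor.

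Over the arrays, the spots of the brightest probe varied by a median of 6.36% (coefficient of variation) for miR-142-3p, 6.84% for miR-223-3p and 9.05% for miR-150-5p, and by at most 15.0%, 17.6% and 18.1%. The scaled level of miR-150-5p ranged over 1.34 log2 units across the 8 arrays, against 0.72 for miR-142-3p and 0.71 for miR-223-3p and a median range of 0.73 over all tested miRNAs.

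The size and sign of these differences moved with the scaling of the arrays and with the summary per miRNA. Of 5 other scalings, 3 gave a positive difference for miR-142-3p (-0.35 to 0.23 over the 5), 3 for miR-150-5p (-0.41 to 0.17) and 2 for miR-223-3p (-0.52 to 0.061). The median of all tested miRNAs moved with them, from -0.28 with labelling spike-in scaling to 0.25 with the percentile taken over all probes. miR-223-3p lay below that median under 5 of the 5, and miR-150-5p and miR-142-3p under 4 each. The authors' value table, which is unscaled and also summarises each miRNA in another way, gave 0.27 for miR-142-3p, 0.18 for miR-150-5p and -0.11 for miR-223-3p. These scalings reuse the same signals and are not separate checks. Leaving the 4 striated muscle probes out of the percentile changed the difference of miR-223-3p to -0.17, of miR-150-5p to -0.066 and of miR-142-3p to -0.0068. The summed striated muscle signal was 0.125 to 16.4 times the percentile after ACLT and 1.47 to 6.33 times after sham surgery, with 6 of 10 listed miRNAs detected. Its defining marker miR-1-3p lay at the floor on ACLT replicate 2, the highest ACLT array for miR-142-3p and miR-223-3p, and at 0.62, 1.57 and 2.05 on the other ACLT arrays. On the sham arrays it was at -0.88, -1.65, 0.59 and -0.50. Its part in the differences was not tested beyond that scaling. With the floor set at 2 times its value the differences were -0.018 for miR-223-3p, -0.043 for miR-142-3p and -0.13 for miR-150-5p. With the mean of all probes of a miRNA in place of the brightest, miR-223-3p differed by -0.34, miR-142-3p by -0.075 and miR-150-5p by -0.10. With the scanner software's summary per miRNA under the main scaling they differed by -0.40, -0.011 and -0.11.

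**Figure D3:**
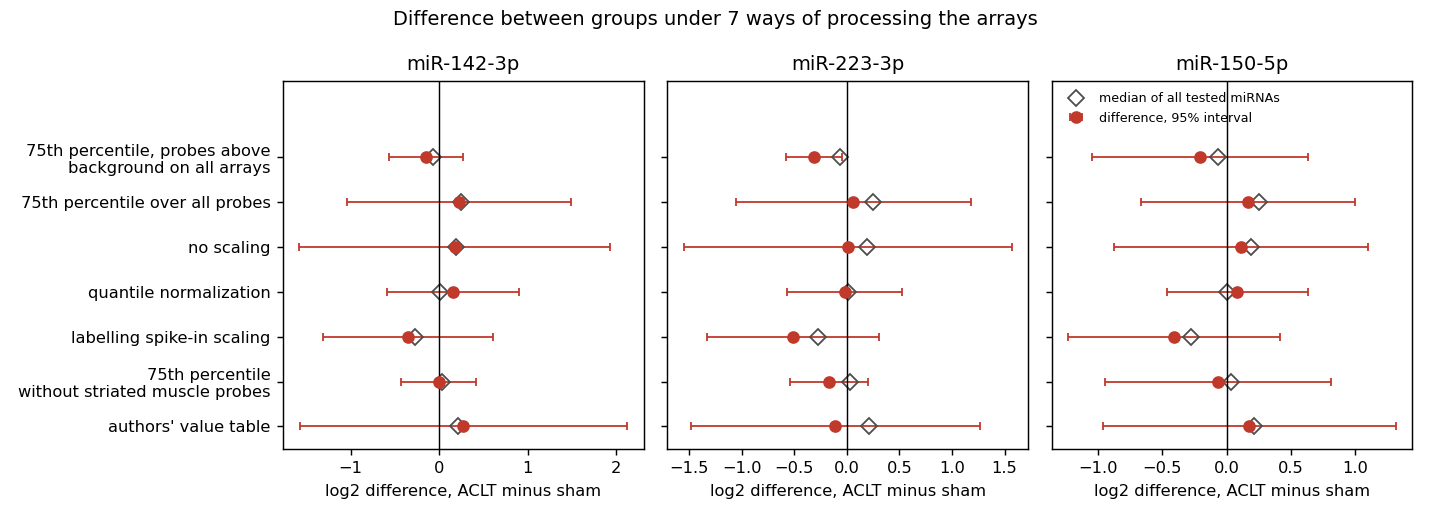
Difference between groups (horizontal axis, log2, ACLT minus sham, with 95% interval) for the 3 tested members under 7 ways of processing the arrays (rows, 1 of them the authors' value table), beside the median of all tested miRNAs (diamonds). The points shift with the diamonds, and miR-223-3p stays to their left in each row.

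**Figure D4:**
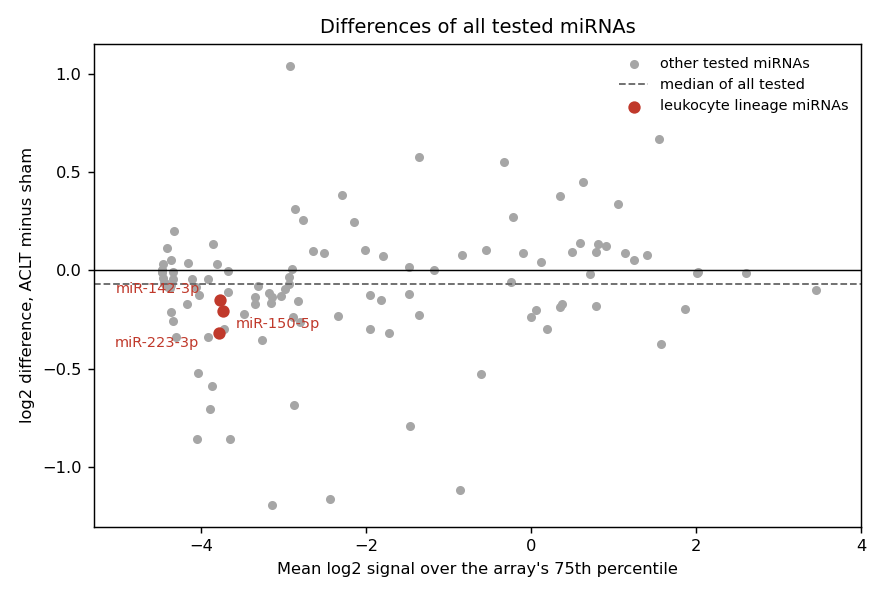
Difference between groups (vertical axis, log2, ACLT minus sham) against mean scaled level (horizontal axis, log2) for the 113 tested miRNAs, with the 3 members in red. The members lie at -0.15, -0.21 and -0.32, within the spread of other dim miRNAs.

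A difference between a pair of members on the same array does not depend on the array's divisor where neither is at the floor, and it shows unequal change only. The log2 level of miR-223-3p minus that of miR-142-3p was -0.11, -0.32, -0.01 and 0.05 with the ligament cut, against 0.19, 0.01, 0.18 and -0.10 with it whole. The groups overlapped, with means of -0.10 ± 0.16 and 0.07 ± 0.14 (SD, n = 4 each). The means differed by -0.17, and an exact two-sided permutation test over 70 arrangements gave p = 0.171 (0.343 after adjustment over both such differences), the smallest possible p being 0.0286. Without ACLT replicate 2 the difference was -0.09, with the mean of all probes -0.26 and with the scanner software's summary -0.38. miR-150-5p minus miR-142-3p ran from -0.98 on sham replicate 4 to 0.64 on ACLT replicate 4, averaging 0.01 ± 0.59 with the ligament cut and 0.07 ± 0.73 with it whole (SD, n = 4 each). That difference of -0.06 had an exact two-sided permutation p of 0.914 (adjusted p = 0.914). It was 0.10 without ACLT replicate 1, 0.11 without ACLT replicate 2, sham replicate 2 or sham replicate 3, and -0.41 without sham replicate 4. It was -0.03 with the mean of all probes and -0.10 with the scanner software's summary.

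Over the 8 arrays the members correlated to different degrees, and the low values changed with the arrays left out and with the scaling. The scaled levels of miR-142-3p and miR-223-3p had a Pearson r of 0.78 and a Spearman rho of 0.79, and r was 0.82 without ACLT replicate 2 and sham replicate 4 and 0.97 with spike-in scaling. miR-142-3p and miR-150-5p had r of -0.19 and rho of 0.05, but r was 0.73 without those same arrays and 0.48 with spike-in scaling. miR-223-3p and miR-150-5p had r of 0.18 and rho of 0.26, but r was 0.65 without sham replicates 3 and 4 and 0.57 with spike-in scaling. The 2 arrays left out were those farthest from the median of the first miRNA of the pair, so they were picked from the same values. With spike-in scaling miR-142-3p also had r of 0.95 to 0.98 with miR-19b-3p, miR-29b-3p and miR-26b-5p, which are outside the members. The reason for the low values was not tested. These are descriptions over 8 arrays that pool both groups and share a divisor on each array.

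Among 99 other miRNAs detected on all arrays, the levels most like those of miR-142-3p were of miR-19b-3p (r = 0.84, rho = 0.76), miR-29b-3p (r = 0.77, rho = 0.60) and miR-26b-5p (r = 0.77, rho = 0.55). For miR-223-3p they were miR-10a-5p (r = 0.76, rho = 0.79), miR-144-3p (r = 0.73, rho = 0.79) and miR-451-5p (r = 0.69, rho = 0.79). For miR-150-5p they were miR-30d-5p (r = 0.94, rho = 0.90), miR-30b-5p (r = 0.93, rho = 0.90) and miR-196c-5p (r = 0.91, rho = 0.81). Of these, miR-30d-5p lay at the floor on 3 arrays and miR-196c-5p on 4, and with spike-in scaling r was 0.79, 0.93 and 0.63. The 3 sets have no miRNA in common.

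None of the other leukocyte miRNAs tested passed either. Of 15 listed, 9 were detected on at least 1 array (60% against 26.3% of all miRNAs on the array) and 4 were tested (26.7% against 14.9%). Of these 4, 0 passed by limma and 0 had an unadjusted p under 0.05. All 4 had a lower mean after ACLT (median -0.22), as did 64.6% of all tested miRNAs (median -0.07). miR-146a-5p, which damps NF-kB signalling in innate cells, averaged -2.02 ± 0.26 with the ligament cut and -1.89 ± 0.21 with it whole (SD, n = 4 each). miR-181a-5p, which tunes T cell receptor signalling, was at -1.88 ± 0.19 and -1.56 ± 0.35 (SD, n = 4 each), a difference of -0.32 (95% interval -0.77 to 0.13). miR-181b-5p differed by -0.34 and lay at the floor on 2 arrays, and miR-181d-5p differed by -0.06 and lay there on 6. miR-155-5p, induced in activated lymphocytes and macrophages, was detected on ACLT replicate 2 and sham replicate 4 only. miR-511-3p, from the macrophage gene Mrc1, was detected on the same 3 bright arrays as miR-142-5p. The summed signal of the 15 was 0.684 to 0.751 times the array's 75th percentile after ACLT and 0.740 to 0.937 times after sham surgery. These ranges overlapped, and miR-146a-5p and miR-181a-5p were the largest parts of the sum.

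The first markers of several tissue lists were detected on all arrays, as were 103 of all 758 miRNAs. These were miR-199a-3p (mesenchymal), miR-126a-3p (endothelial), miR-143-3p (smooth muscle), miR-140-3p (cartilage) and miR-1-3p (striated muscle), each on 8 of 8. Other members of these lists were often not detected. Over whole lists, 3 of 4 mesenchymal, 1 of 2 endothelial and 2 of 4 smooth muscle miRNAs were detected on at least 1 array. So were 4 of 4 cartilage, 6 of 10 striated muscle and 0 of 7 epithelial miRNAs, against 199 of all 758.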

How the data were processed

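Total RNA of 8 samples was hybridised to Agilent rat miRNA arrays in 1 colour (Cy3). Per the labels, 50 ng of RNA was labelled with a kit made for messenger RNA; whether that kit was used here is not clear from those labels. Per the file headers, the authors used version 10.7.3.1 of Agilent's Feature Extraction software on the images (protocol miRNA_107_Sep09, grid build rn4), and the deposited processed signals are background-subtracted intensity values not scaled between arrays. That software's summary per miRNA is what the authors' deposited value table holds (largest difference 0).

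Control spots and spots marked as outliers (9.01% to 11.1% per array) were dropped, and the remaining spots averaged by probe. A probe was well above background where at least 0.5 of its spots were. A miRNA was represented by its brightest probe over all arrays. The floor is the median over arrays of the lowest scaled signal well above background. The tested miRNAs were those called detected on each array of 1 group or more. The test was run with limma 3.58.1 in R 4.3.3 (eBayes, no covariate). All arrays shared 1 slide and 1 scan date. Steps were tested on simulated data. Members and lists were chosen with earlier results of these data known. The named miRNAs are the members, the 3 most correlated with each member detected on all arrays, the tested list of other leukocyte miRNAs and the first marker of each cell type list; miR-155-5p and miR-511-3p are named as untested members of the leukocyte list. Scalings, probe summaries, background correction, filters, floors, variance models, slide row, replicate number and leaving out each array were varied. A further, lower floor, the count over 5 scalings and the second probe of miR-223-3p without sham replicate 3 were added after seeing the data.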

Additional observations from a re-analysis of the deposited data

Results flagged for a closer look

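Among 60 group values, 4 held 1 array that stood well apart from its group. Chance would give 3 if the 60 were independent, but they share arrays and miRNAs, so the counts are not comparable. All 4 were members' signals before scaling. Sham replicate 4, the brightest array, stood apart for miR-142-3p at 120.1 (other sham arrays 17.8 to 27.0), with a gap of 0.910 of the sham range. It did so for miR-223-3p at 112 (others 20.3 to 30.5, gap 0.888) and for miR-142-5p at 25.8 (others 1.52 to 4.98, gap 0.858). ACLT replicate 2, the brightest ACLT array, stood apart for miR-150-5p at 68.0 (others 29.8 to 35.8), with a gap of 0.844 of the ACLT range. None of the 3 tested members had such an array on the scaled log2 level.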

How the results depend on the processing

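The count of miRNAs past an adjusted p of 0.05 was 0 under every alternative run except within slide row 1, where it was 4 and included 0 members; it was 0 to 0 with each array left out. The difference of miR-142-3p turned positive with the percentile over all probes (0.23), no scaling (0.17), quantile normalization (0.16), the authors' value table (0.27) and within slide row 1 (0.13). That of miR-223-3p turned positive with the percentile over all probes (0.061) and no scaling (0.0077), and that of miR-150-5p with these (0.17 and 0.11), quantile normalization (0.083), the value table (0.18) and within slide row 2 (0.29). With each array left out, miR-142-3p ran from -0.26 to -0.019, miR-223-3p from -0.39 to -0.24, miR-150-5p from -0.43 to 0.0050, miR-223-3p minus miR-142-3p from -0.22 to -0.092 and miR-150-5p minus miR-142-3p from -0.41 to 0.11. The cause was not tested. No member passed under any of the 28 alternatives (limma adjusted p 0.489 to 1 for miR-142-3p, 0.333 to 1 for miR-223-3p, 0.379 to 1 for miR-150-5p). The labels do not say whether replicate numbers pair the samples, and the correlations of same-numbered samples (-0.19, 0.59, 0.80 and -0.41) cannot decide it. With the replicate block the count was 0 and the differences were -0.15, -0.32 and -0.21 for miR-142-3p, miR-223-3p and miR-150-5p. Signals near background limit all members, and the 4 untested members, at the floor on all arrays, were not followed through the alternatives. The normexp correction was run on median signals.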
